A study of Mus musculus with 6 samples.

Results

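miR-191 and miR-425 come from neighbouring hairpins on mouse chromosome 9, and both arms of both hairpins were followed in 6 small RNA libraries of adult hippocampus. The 4 mature rows, mmu-miR-191-5p, mmu-miR-191-3p, mmu-miR-425-5p and mmu-miR-425-3p, were taken by name out of 2035 mature miRNA rows and 109108 rows in all. The cluster was chosen by the counts of miR-191-5p, whose low level in the Dicer1-ifKO libraries was already known. Differences between the genotypes are therefore given for these rows as descriptions, with no p-value.

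The hippocampi came from C57BL/6 males, 3 months old. Both genotypes carried Dicer1 flox/flox and were given tamoxifen, and the tissue was taken 3 weeks later. The Dicer1-ifKO mice (3 libraries) also carried CaMKIIa-creERT2, a tamoxifen-activated recombinase driven in excitatory forebrain neurons, and the WT mice (3 libraries) had the floxed alleles without it. Each library pooled RNA of 3 mice, which makes 9 mice per genotype in these libraries against 12 in the series' design text. Glia, vessels, blood and other neurons keep Dicer1 in this model, and in whole tissue fewer cells of a type and less RNA per cell cannot be told apart.

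Dicer1 encodes the ribonuclease that cuts a precursor hairpin into a duplex of its 5p and 3p arms. One arm of the duplex is usually loaded into an Argonaute protein and kept, and the other is degraded. A loaded miRNA finds messenger RNAs mainly through its seed, bases 2 to 8. miR-191-5p is present in most tissues and is widely used as a reference for miRNA measurements by RT-qPCR. In cultured mouse neurons it is known to target Tmod2, a gene of the actin cytoskeleton, during long-term depression. miR-425-5p is co-transcribed with it and, in human cells, is known to target NPPA, which encodes atrial natriuretic peptide.

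The mature sequences show what separates the products, with the seed in capitals (RefSeq, GRCm38, plus strand).
miR-191-5p: cAACGGAAucccaaaagcagcug
miR-191-3p: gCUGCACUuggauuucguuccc
miR-425-5p: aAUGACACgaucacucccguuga
miR-425-3p: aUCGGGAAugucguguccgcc
The 4 seeds differ from one another, so the cluster makes products with separate seeds and not copies of 1 miRNA. Among 1679 mature names in the RefSeq table, 1 other, miR-489-3p, shares a seed with a member (that of miR-425-5p), and it held 2 counts over all 6 libraries. No other name shares the seeds of miR-191-5p, miR-191-3p or miR-425-3p.

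The hairpins show where the arms lie, with the mature arms in capitals and the 5p arm first.
Mir191: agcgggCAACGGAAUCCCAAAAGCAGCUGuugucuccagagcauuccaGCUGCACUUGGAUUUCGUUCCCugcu
Mir425: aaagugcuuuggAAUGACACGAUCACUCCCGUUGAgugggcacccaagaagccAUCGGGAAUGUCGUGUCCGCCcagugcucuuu
Mir191 spans chr9:108568319-108568392 and Mir425 chr9:108568777-108568861, with 384 bases between them. In the minimum free energy fold of RNAfold, 19 of 23 bases of miR-191-5p and 14 of 23 bases of miR-425-5p were paired. The predicted energy was -35.0 kcal/mol for Mir191 and -31.7 kcal/mol for Mir425. In GENCODE M21 both hairpins lie in the single exon of the long noncoding transcript 4833445I07Rik-201 (chr9:108567533-108569174), and Mir191 also lies in the intron of 4833445I07Rik-202. Dalrd3, often named as the host of this cluster, starts downstream at 108569886 in that annotation.

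Gene spans around the cluster left almost no fragments in these libraries. No gene span in the files covers the 4 arms, so the host's own level could not be followed. The counts of the arms are thus not shared with a longer row. Within 50000 bases the files list 7 gene spans, and none had more than 10 counts in a library or entered the test. Dalrd3, whose human counterpart is known for a part in tRNA methylation, held 1, 3 and 0 counts in Dicer1-ifKO replicates 1, 2 and 3, and 3, 4 and 4 counts in WT replicates 1, 2 and 3. The spans with the most counts were Qrich1 with 24 counts in Dicer1-ifKO and 25 in WT, Arih2 with 10 and 13, and Wdr6 with 11 and 11. At this depth no difference in these spans was detectable. The annotation also places Gm24083, a predicted miRNA gene, on the minus strand over Mir191. Reads of the 2 strands cannot be told apart in these counts: where miRNA rows of both strands cover 1 place, their totals were within 1% in 21 of 23 cases.

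The libraries held 2318205 to 2739366 miRNA counts in Dicer1-ifKO and 2724752 to 3179363 in WT. Levels are given as CPM, counts per 1000000 tested feature counts after TMM scaling (edgeR). All 4 arms passed the filter on low counts. The 4 arms, of 21 to 23 bases, stood in the order miR-191-5p, miR-425-5p, miR-425-3p and miR-191-3p by mean CPM in both genotypes. The last 2 were 1.62 ± 0.69 and 1.31 ± 0.15 CPM in Dicer1-ifKO, within their spread, and 2.56 ± 0.46 and 1.88 ± 0.21 CPM in WT, where their libraries did not overlap (SD, n = 3 each).

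miR-191-5p was the abundant product and stood lower in every Dicer1-ifKO library than in any WT library. It had 609, 642 and 622 CPM in Dicer1-ifKO replicates 1, 2 and 3, from 25229, 34156 and 29181 counts. In WT replicates 1, 2 and 3 it had 1008, 1214 and 1104 CPM, from 49331, 58005 and 51251 counts. The Dicer1-ifKO libraries lay close together and the WT libraries were wider apart, with 624 ± 17.0 CPM in Dicer1-ifKO and 1109 ± 103 CPM in WT (SD, n = 3 each). The level in Dicer1-ifKO was 0.56 times that in WT, a log2 change of -0.83 ± 0.13 (SE). Counting error was at most 0.63% of the count in any library, so the spread between pools and the scaling set the precision.

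As a share of all miRNA counts, which needs no scaling between libraries, miR-191-5p took 1.19% ± 0.086 in Dicer1-ifKO and 1.81% ± 0.20 in WT (SD, n = 3 each). That total is summed over rows, and a miRNA listed at several places enters it at each, so the shares are not of distinct reads. The shares were 1.09%, 1.25% and 1.22% in Dicer1-ifKO replicates 1, 2 and 3, and 1.81%, 2.01% and 1.61% in WT replicates 1, 2 and 3, so the genotypes did not overlap on this scale either. Among tested miRNA rows it ranked 16 by mean level in Dicer1-ifKO and 12 in WT.

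The passenger arm, miR-191-3p, was rare, and its libraries did not overlap between genotypes either. It had 1.47, 1.18 and 1.28 CPM in Dicer1-ifKO replicates 1, 2 and 3, and 1.68, 2.09 and 1.87 CPM in WT replicates 1, 2 and 3. These values rest on 60 to 63 counts per Dicer1-ifKO library and 82 to 100 per WT library, a counting error of up to 12.9%. The log2 change was -0.52 ± 0.19 (SE), and -0.29 where TMM was computed on the miRNA rows. The highest Dicer1-ifKO library and the lowest WT library differed by less than the sum of their counting errors.

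miR-425-5p, the main product of its hairpin, stood lower in Dicer1-ifKO by a smaller margin. It had 21.3, 18.8 and 17.2 CPM in Dicer1-ifKO replicates 1, 2 and 3, from 885, 999 and 809 counts. In WT replicates 1, 2 and 3 it had 22.8, 22.7 and 26.7 CPM, from 1116, 1087 and 1241 counts. The genotypes did not overlap, but Dicer1-ifKO replicate 1 came close to WT replicate 2. The means were 19.1 ± 2.07 CPM in Dicer1-ifKO and 24.1 ± 2.29 CPM in WT (SD, n = 3 each), a log2 change of -0.33 ± 0.16 (SE). It was -0.21 without WT replicate 3 and -0.095 where TMM was computed on the miRNA rows. As a share of miRNA counts it took 0.0382%, 0.0365% and 0.0339% in Dicer1-ifKO replicates 1, 2 and 3, and 0.0410%, 0.0376% and 0.0390% in WT replicates 1, 2 and 3. On that scale the genotypes overlapped.

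miR-425-3p, the lesser arm, overlapped between the genotypes through 1 library. It had 2.41, 1.28 and 1.17 CPM in Dicer1-ifKO replicates 1, 2 and 3, from 100, 68 and 55 counts, and 2.35, 2.24 and 3.08 CPM in WT replicates 1, 2 and 3, from 115, 107 and 143 counts. Dicer1-ifKO replicate 1 stood at the WT level, and the other two were lower than every WT library. The log2 change was -0.66 ± 0.27 (SE) with all libraries and -1.06 ± 0.24 (SE) without Dicer1-ifKO replicate 1. It was -0.44 where TMM was computed on the miRNA rows.

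**Figure D1:**
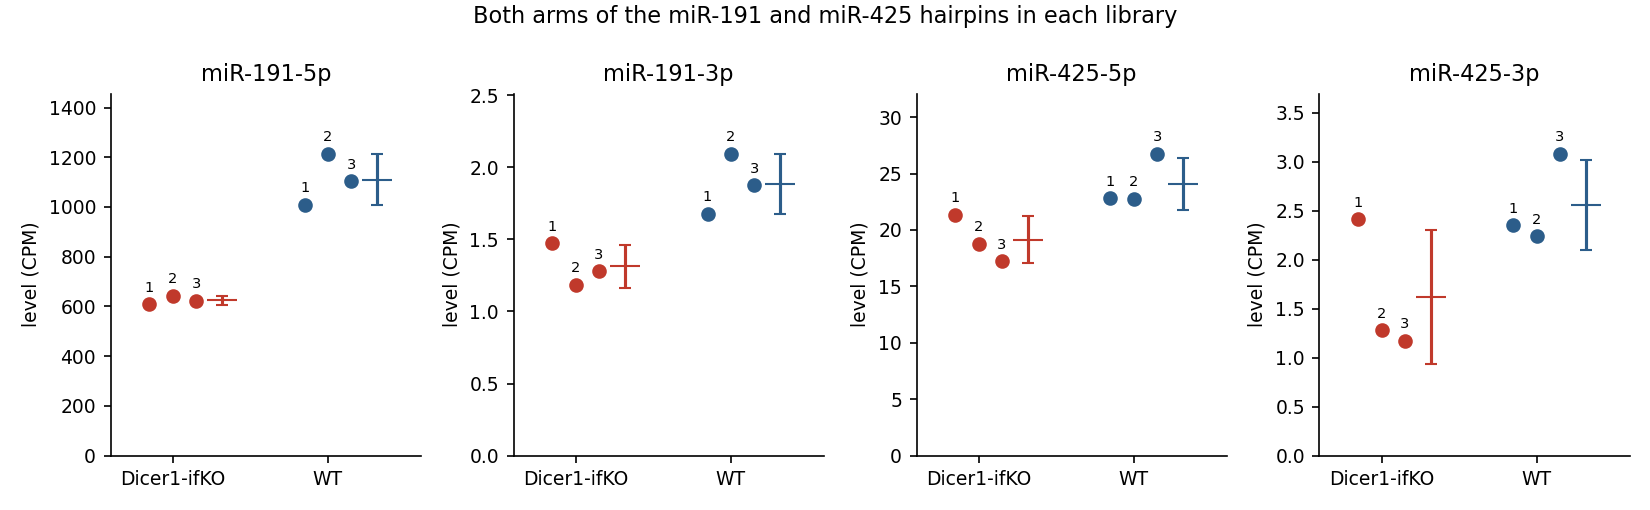
Level in CPM (y axis, from 0) of each arm in the 3 Dicer1-ifKO libraries (red) and the 3 WT libraries (blue), with replicate numbers above the points and the mean and SD beside them. miR-191-5p lies at 609 to 642 CPM in Dicer1-ifKO and 1008 to 1214 CPM in WT, while miR-425-3p overlaps through Dicer1-ifKO replicate 1 at 2.41 CPM.

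In the fit over all 6539 tested features (edgeR quasi-likelihood test, Benjamini-Hochberg, adjusted p of 0.05), 1 of the 4 arms, miR-191-5p, was called lower, where 0.795% of all tested features and 6.59% of the 546 tested miRNA rows were. The rule used this contrast, so nothing is read from the count. The call was lost without Dicer1-ifKO replicate 2 (log2 -0.82), Dicer1-ifKO replicate 3 (-0.83), WT replicate 2 (-0.75) or WT replicate 3 (-0.79), and where TMM was computed on the miRNA rows (-0.59). Without WT replicate 1 (-0.90) or Dicer1-ifKO replicate 1 (-0.81) it was kept. Lower levels without overlap were found in 3 of the 4 arms, where 9.27% of all tested features and 33.9% of tested miRNA rows had them.

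Of the 546 tested miRNA rows 75.5% had a log2 change below 0, with a median of -0.24, against -0.03 over the other features. miR-425-5p lay near that median, and 234 of the 546 rows had a lower log2 change. miR-191-5p lay well below it, and 55 rows had a lower log2 change. For miR-191-3p the number was 134 and for miR-425-3p it was 84. Of the 21 rows with at least 500 CPM in WT, none had a lower log2 change than miR-191-5p. The other 20 ran from -0.61 for miR-127-3p, an imprinted miRNA of chromosome 12, to 0.11 for miR-30a-5p, and the median of the 21 was -0.26. A miRNA listed at several places, such as miR-26a-5p, enters these rows at each. The change of miR-191-5p chose the cluster, so nothing is read from its place among them.

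**Figure D2:**
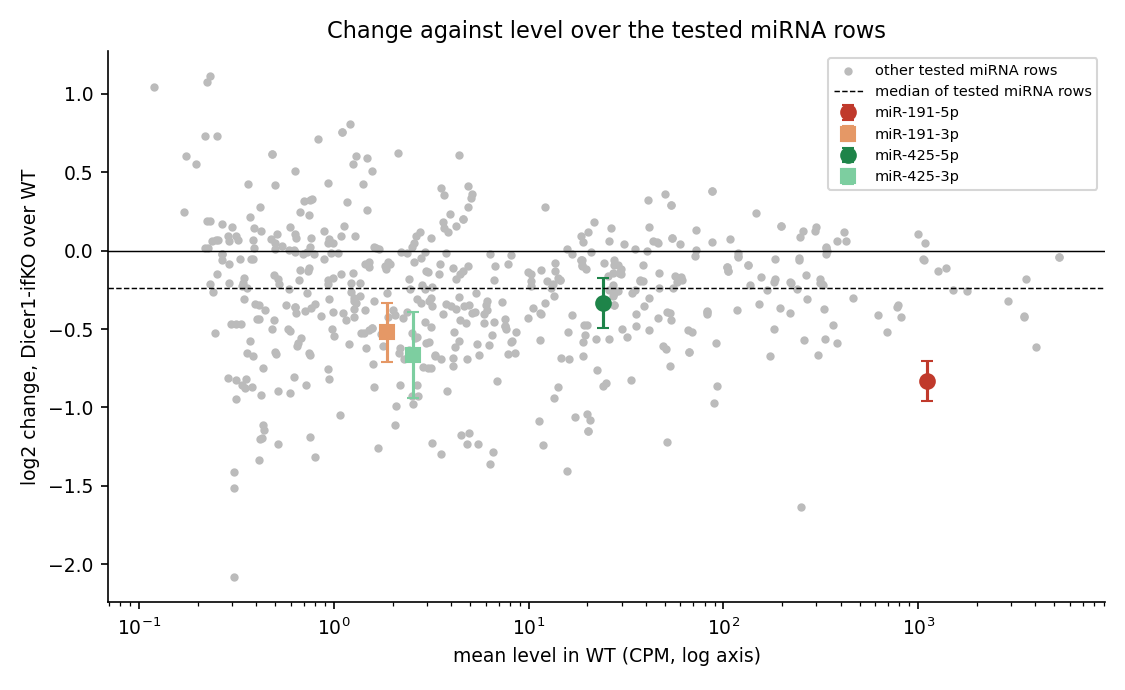
Log2 change of Dicer1-ifKO over WT (y axis) against mean WT level in CPM (x axis, log scale) for the 546 tested miRNA rows, with the 4 arms coloured and their SE as bars. miR-191-5p at -0.83 is the lowest point above 500 CPM, and miR-425-5p at -0.33 lies near the dashed median of -0.24.

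The rows next to miR-191-5p in WT level stood closer between the genotypes. miR-30d-5p, next above miR-191-5p in WT, had 1153 ± 82.5 CPM in Dicer1-ifKO and 1261 ± 138 CPM in WT. miR-92b-3p, next below it, had 1125 ± 73.7 CPM in Dicer1-ifKO and 1088 ± 140 CPM in WT (SD, n = 3 each). In WT the libraries of both rows overlapped those of miR-191-5p, while in Dicer1-ifKO every library of both stood above those of miR-191-5p. Around miR-425-5p the order was the reverse. miR-673-5p and miR-671-3p, next above and below it in WT at 24.1 ± 2.79 and 22.3 ± 3.19 CPM, had 13.3 ± 0.55 and 13.2 ± 0.81 CPM in Dicer1-ifKO, below its 19.1 CPM.

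By absolute amount miR-191-5p had the fifth most negative difference among tested miRNA rows. Its difference was -484 CPM, after miR-127-3p (-1400 CPM), both rows of miR-26a-5p (-884 and -873 CPM) and miR-125a-5p (-572 CPM). That is 5.51% of the net difference of -8792 CPM over all tested miRNA rows, whose levels summed to 52736 CPM in Dicer1-ifKO and 61528 CPM in WT. A miRNA listed at several places, such as miR-26a-5p, enters these sums and the order at each place. The sums and the percentage are therefore of rows and not of distinct reads.

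The hairpins share the annotated transcript 4833445I07Rik-201, while 4833445I07Rik-202 holds Mir191 and ends before Mir425. Ratios of their arms within a library are free of any scaling between libraries. miR-191-5p counts were 28.5, 34.2 and 36.1 times those of miR-425-5p in Dicer1-ifKO replicates 1, 2 and 3, and 44.2, 53.4 and 41.3 times in WT replicates 1, 2 and 3. The genotypes did not overlap. The log2 ratio averaged 5.03 ± 0.18 in Dicer1-ifKO and 5.52 ± 0.19 in WT (SD, n = 3 each), a difference of -0.49. For the rare arms, the log2 ratio of miR-191-3p to miR-425-3p was -0.23 ± 0.43 in Dicer1-ifKO and -0.43 ± 0.31 in WT (SD, n = 3 each), with overlap.

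Each hairpin kept its dominant 5p arm in both genotypes. For miR-191 the 5p arm held 99.76%, 99.82% and 99.79% of the hairpin's counts in Dicer1-ifKO replicates 1, 2 and 3, and 99.83% in each WT library to 2 decimals. The Dicer1-ifKO shares were all below the WT shares, but the 95% Wilson intervals overlapped, at 99.69% to 99.81% in the lowest Dicer1-ifKO library and 99.79% to 99.87% in the highest WT library. For miR-425 the 5p arm held 89.8%, 93.6% and 93.6% in Dicer1-ifKO replicates 1, 2 and 3, and 90.7%, 91.0% and 89.7% in WT replicates 1, 2 and 3. The genotypes overlapped through Dicer1-ifKO replicate 1, the library with the high miR-425-3p level. Intervals cover counting error only.

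**Figure D3:**
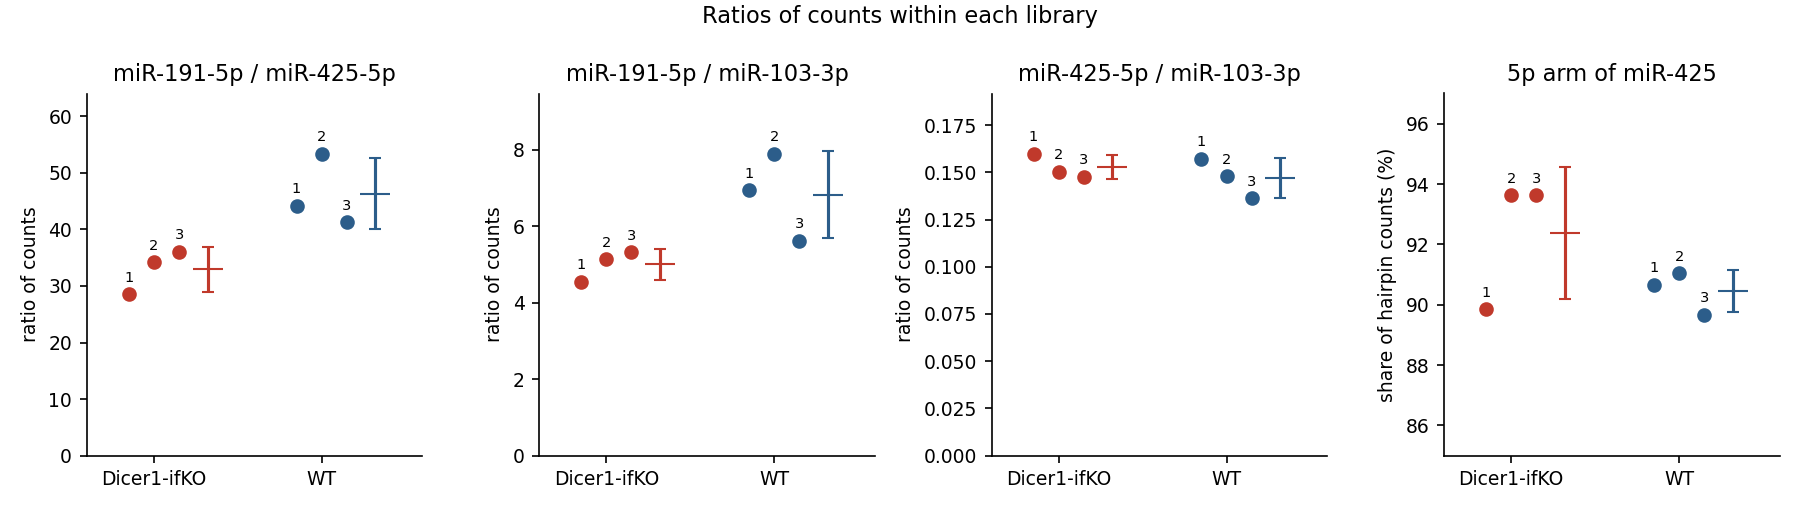
Ratios of counts within each library (y axes from 0 for the ratios, and a share in percent from 85 for the arm), for 3 Dicer1-ifKO (red) and 3 WT (blue) libraries, with mean and SD beside the points. The ratio of miR-191-5p to miR-425-5p lies at 28.5 to 36.1 in Dicer1-ifKO and 41.3 to 53.4 in WT, and that of miR-425-5p to miR-103-3p overlaps.

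miR-191-5p was next set against small RNAs that, like it, serve as references in RT-qPCR. miR-103-3p, often paired with miR-191-5p for this purpose, gave a count ratio of 4.55, 5.14 and 5.33 in Dicer1-ifKO replicates 1, 2 and 3, and of 6.95, 7.90 and 5.62 in WT replicates 1, 2 and 3. The ratios did not overlap, but Dicer1-ifKO replicate 3 came close to WT replicate 3. The difference in log2 ratio was -0.44. miR-425-5p against the same reference overlapped, with a log2 ratio of -2.71 ± 0.060 in Dicer1-ifKO and -2.77 ± 0.10 in WT (SD, n = 3 each). Counts of miR-103-3p were summed over its 2 places, as for every reference RNA listed at several places. The size of such a ratio is therefore not one of distinct reads.

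Over the list of 19 reference RNAs, 12 miRNAs and 7 snoRNAs, the ratio of miR-191-5p was lower in Dicer1-ifKO with each of them, by a log2 difference from -0.95 (miR-30e-5p) to -0.41 (miR-26a-5p). The genotypes did not overlap with 18 of the 19, the exception being miR-24-3p. All 19 ratios share miR-191-5p, whose difference chose the cluster, so nothing is read from that count. On the CPM scale 33.9% of tested miRNA rows and 9.27% of all tested features were lower without overlap. For miR-425-5p the differences ran from -0.46 to 0.08, and 6 of the 19 had no overlap. The snoRNAs, which do not need Dicer, gave -0.93 to -0.66 for miR-191-5p and -0.44 to -0.17 for miR-425-5p.

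Of the 25 tested rows of the reference RNAs 0 passed in either direction by edgeR and 0 by DESeq2, where edgeR called 0.795% of all tested features lower and 0.0153% higher. At p of 0.05 without adjustment 5 rows were lower and 0 higher, where 6.47% of all tested features were lower. Of the 25 rows 18 are of miRNAs, and this share was not computed for miRNA rows apart. A reference miRNA listed at several places enters at each, so nothing is read from this count. The median log2 ratio of mean CPM was -0.23 over the miRNAs and 0.06 over the snoRNAs, against -0.24 for tested miRNA rows and -0.03 for other features. The lowest were miR-26a-5p (-0.42), miR-103-3p (-0.40), miR-107-3p (-0.35), miR-24-3p (-0.31), miR-423-3p (-0.30), miR-25-3p (-0.26), let-7a-5p (-0.19), Snord70 (-0.18) and Snord61 (-0.14). The others were Snord68 (-0.06), miR-16-5p (-0.05), miR-423-5p (0.04), miR-93-5p (0.06), Snord95 (0.06), Snord65 (0.07), miR-92a-3p (0.09), Snord72 (0.09), Snord96a (0.10) and miR-30e-5p (0.13). Without WT replicate 1, both rows of miR-26a-5p were called lower (log2 -0.48 each, edgeR adjusted p = 0.045 and 0.046).

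**Figure D4:**
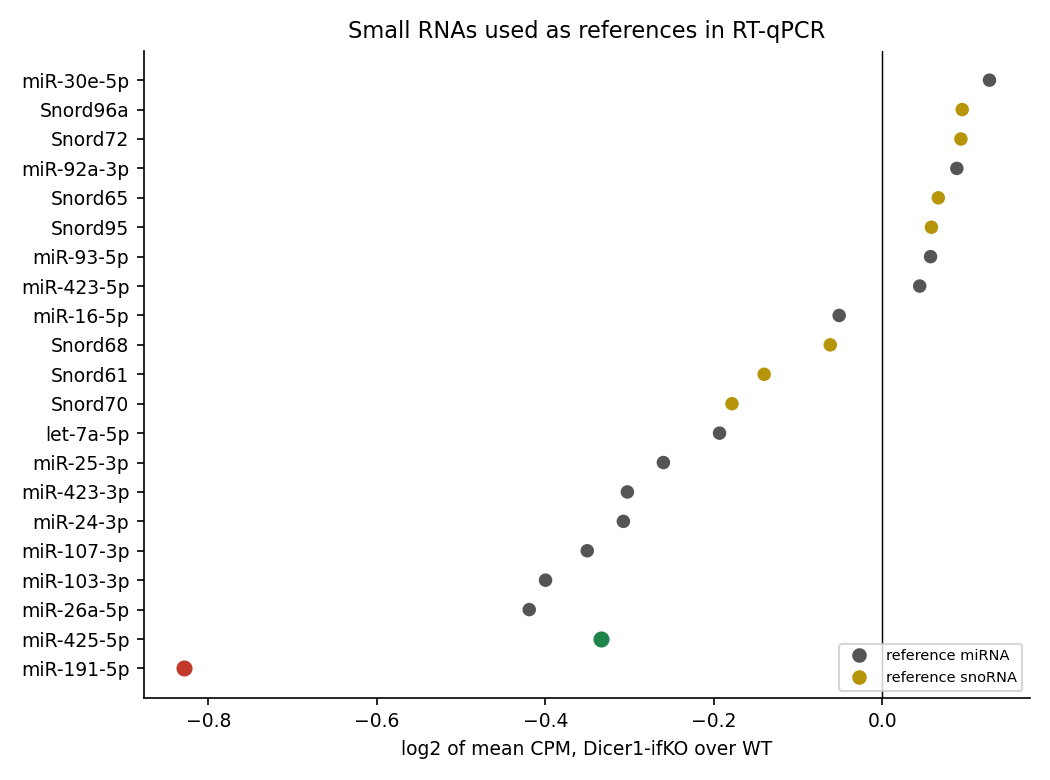
Log2 of mean CPM in Dicer1-ifKO over WT (x axis) for miR-191-5p (red), miR-425-5p (green), 12 reference miRNAs (grey) and 7 reference snoRNAs (gold), 3 libraries per genotype. The reference RNAs lie between -0.42 and 0.13, miR-425-5p falls within that range, and miR-191-5p lies below it at -0.83.

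Neighbouring hairpins elsewhere gave a measure of how far products of 1 locus differ. Each hairpin was represented by its more abundant arm, and 280 hairpins had at least 50 counts per library on average in that arm. Left out were 58 whose main arm is listed at several places and 19 whose main arm shares its place with another row, since their counts cannot be assigned. The 203 others made 50 pairs of consecutive hairpins on 1 strand within 10000 bases. The log2 changes of miR-191-5p and miR-425-5p differed by 0.50, against a median of 0.19 over the pairs. A larger difference was found in 8 of the other 49 pairs, 7 of them among the 33 pairs of chromosome 12, which carries a large imprinted miRNA region. The 16 other pairs outside chromosome 12 had a median difference of 0.15, and 1 of them had a larger difference than miR-191-5p and miR-425-5p. This was miR-221-3p and miR-222-3p of the X chromosome, at -0.97 ± 0.16 and -1.63 ± 0.14 (SE). miR-212-3p and miR-132-3p, the activity-induced pair of chromosome 11, had -0.73 ± 0.15 and -0.37 ± 0.17, values close to those of this cluster. miR-25-3p and miR-93-5p, from an intron of Mcm7, had -0.26 ± 0.16 and 0.06 ± 0.20. The within-library ratio did not overlap between genotypes in 14 of the other 49 pairs, 4 of them outside chromosome 12. The difference of miR-191-5p chose the cluster, so nothing is read from the place of its pair among the others.

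**Figure D5:**
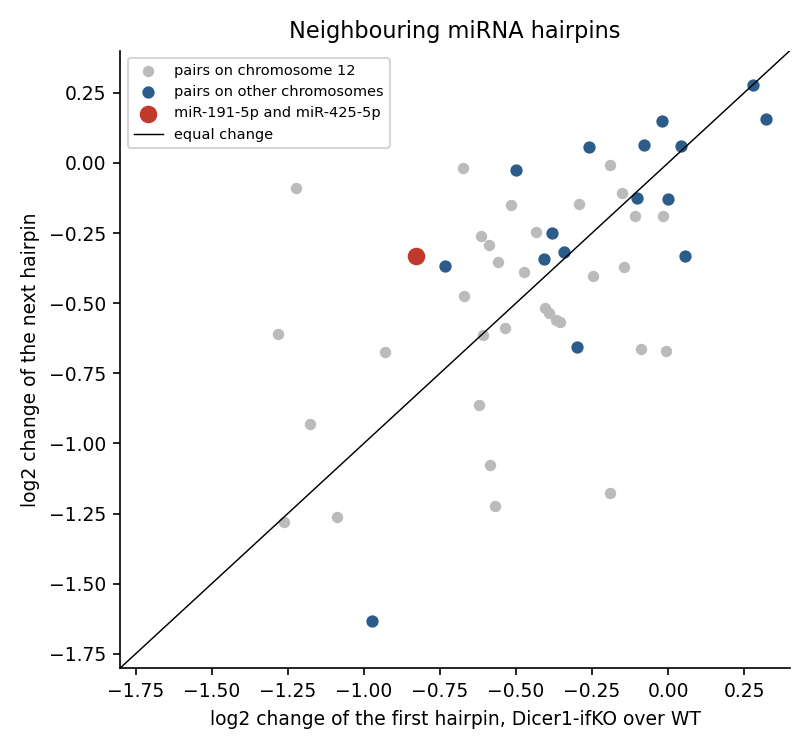
Log2 change of Dicer1-ifKO over WT for the main arm of a hairpin (x axis) and of the next hairpin by coordinate (y axis) in 50 neighbouring pairs, with chromosome 12 pairs in grey and other pairs in blue. The pair of miR-191-5p and miR-425-5p (red, -0.83 and -0.33) lies off the line of equal change by 0.50.

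The rows whose profile over the 6 libraries was most like that of miR-191-5p were not its cluster mates. Likeness was the root mean square difference of log2 CPM after centring each row on its mean, over 391 other rows with at least 50 counts per library on average. The nearest were miR-673-5p (0.040), miR-484 (0.081), miR-667-3p (0.083), miR-7689-3p (0.085) and miR-671-3p (0.098), with log2 changes of -0.86, -0.83, -0.67, -0.98 and -0.76. Its own passenger arm stood at place 50 (0.19), miR-425-5p at 128 (0.29) and miR-425-3p farther off (0.38). The measure includes the genotype difference that chose the cluster, so rows with like log2 changes come near. Counting error, up to 12.9% for miR-191-3p and 13.5% for miR-425-3p, adds to the distance of the rare arms. Nearest to miR-425-5p were miR-186-5p (0.042) and the rows of miR-26a-5p on chromosomes 10 and 9 (both 0.058), with log2 changes of -0.31, -0.42 and -0.42.

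Base composition and other cell types were set beside these values. miR-191-5p has 52.2% G and C, and the 164 other tested rows within 5 points of it had a median log2 change of -0.31, with 18 of them lower than miR-191-5p. Neuron markers, the tissue check, were abundant: all 7 names were tested, with summed levels of 2637 to 3336 CPM in Dicer1-ifKO and 3148 to 4050 CPM in WT. These sums overlapped, and their members went different ways. Each name was summed over its rows, and some, such as miR-124-3p, miR-9-5p, miR-128-3p and miR-138-5p, are listed at several places. Their levels and shares are therefore not of distinct reads. miR-128-3p, 36.7% of the sum in Dicer1-ifKO and 43.4% in WT, was lower without overlap (1034 to 1168 and 1416 to 1676 CPM). miR-9-3p was higher without overlap (16.1 to 25.6 and 13.7 to 15.9 CPM). miR-124-3p, miR-9-5p, miR-132-3p, miR-137-3p and miR-138-5p overlapped between the genotypes. Choroid plexus and epithelial markers were lower without overlap, at 221.3 to 239.8 CPM in Dicer1-ifKO and 322 to 348 CPM in WT over 5 of 5 names, none at 0. That sum is mostly miR-204-5p, with 98.3% of it in Dicer1-ifKO and 98.4% in WT, and miR-211-5p, miR-200a-3p, miR-200b-3p and miR-429-3p overlapped between the genotypes. Microglia and leukocyte markers, with counts for 6 of 6 names, were higher without overlap by a narrow margin, at 200.4 to 226.5 CPM in Dicer1-ifKO and 162 to 199 CPM in WT. That sum is mostly miR-150-5p, with 80.9% of it in Dicer1-ifKO and 79.6% in WT. miR-150-5p was higher without overlap (163.8 to 180.2 CPM in Dicer1-ifKO and 126.2 to 158.1 CPM in WT). So was the rare miR-142-3p (0.36 to 0.82 CPM in Dicer1-ifKO and 0.15 to 0.33 CPM in WT). miR-142-5p had 21.6 to 28.3 CPM in Dicer1-ifKO and 20.8 to 22.8 CPM in WT, which overlapped. miR-146a-5p, miR-223-3p and miR-155-5p also overlapped between the genotypes. The other sums overlapped: 257 to 350 and 218 to 340 CPM for oligodendrocytes (4 of 4 names), 131.9 to 235.7 and 118 to 183 CPM for endothelium (2 of 2), and 97.2 to 116 and 109 to 120 CPM for erythrocytes (3 of 4, the fourth being a newer name of miR-486-5p), with Dicer1-ifKO before WT in each. Of the tested rows of these 6 lists 0 passed by edgeR or DESeq2 in either direction, where edgeR called 0.795% of all tested features lower and 0.0153% higher. At p of 0.05 without adjustment 2 of 15 neuron rows and 1 of 5 choroid plexus rows were lower, where 6.47% of all tested features were. At that threshold 1 of 4 microglia and leukocyte rows was higher, and the share of all features higher was not computed. Nothing is read from these counts. The part of cell composition in the difference of miR-191-5p was not tested.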

How the data were processed

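Small RNA was sequenced from 6 pools of hippocampal RNA (TruSeq small RNA libraries, per the labels' protocols), 3 pools per genotype, with groups and replicate numbers from the sample titles. The column name in the file of WT replicate 2 is a sequencing run name and not the title, and that file was assigned by its deposition under the sample. Each file lists the same 109108 features with raw counts and normalized counts. The raw counts were deposited by the authors as whole numbers without scaling. The other column, a normalized signal, equals those counts times 1 constant per library in the deposited values, and only the constants were used. Per the submitters' processing notes, the tools were BWA, SAMtools 0.1.18, CASAVA 1.8.2 and DESeq2, with the build GRCm38, and no roles are stated. The counter is not given in the sources used.

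Rows of 1 gene and chromosome with identical counts in all libraries were counted once (13606 removed), other than miRNA rows. The miRNA rows were kept at each place, and the 546 tested ones hold 507 distinct names. Shares of miRNA rows are thus of rows and not of distinct miRNAs. edgeR 4.0.16 in R 4.3.3 was run over all 6539 features that passed filterByExpr (minimum count 10), with TMM and robust glmQLFit, followed by the two-sided glmQLFTest. Summed feature counts were 55101387 to 77428956 in Dicer1-ifKO and 63797625 to 74809070 in WT, and a read can count in several features. The spread that p-values measure is that between pools. The SE of a log2 change is its absolute value divided by the square root of the F statistic of glmQLFTest. For miR-191-5p DESeq2 gave an SE of 0.18. Hairpins were folded with RNAfold (ViennaRNA 2.7.2). GC values came from RefSeq for 482 of 546 tested miRNA rows, and the GC trend was fitted by lowess (span 0.75, statsmodels 0.14.6).

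The miR-142a markers were matched to the older names in the files by RefSeq coordinates. Hairpins were rows of 1 strand and name stem that start within 120 bases. Named RNAs were the 4 arms, the reference and marker lists, spans near the cluster by counts, the rows nearest in level and in profile, like clusters, and rows with a member's seed. The abundant rows and those by absolute amount were picked once their values were known. The members and lists were chosen with earlier results of these data known. Dalrd3 was listed as the host, which GENCODE M21 does not show.

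The alternatives tried were DESeq2 1.42.0, 5 other scalings, 2 other filters on counts, the miRNA rows alone, a replicate block, GC trend removal and leaving out each library; taking each reference RNA in turn as denominator was chosen after seeing the data.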

Additional observations from a re-analysis of the deposited data

How the results depend on the processing

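All 4 arms stayed below 0 in all 17 alternatives run. The log2 change moved by more than the spread between libraries where the miRNA rows set the scaling or were fitted alone, to -0.59 in both for miR-191-5p, -0.29 in both for miR-191-3p and -0.095 in both for miR-425-5p. The first of these scalings moved the median of miRNA rows to 0.0013, from -0.24. Left out in turn, single libraries gave -0.90 to -0.75 for miR-191-5p, -0.61 to -0.43 for miR-191-3p, -0.42 to -0.21 for miR-425-5p and -1.06 to -0.46 for miR-425-3p. They gave 0 to 1 arms called, 1 to 70 miRNA rows lower, 1 to 143 features called and 0 to 2 reference rows lower. The miRNA rows lower numbered 19, 1 and 8 without Dicer1-ifKO replicates 1, 2 and 3, and 70, 12 and 13 without WT replicates 1, 2 and 3, so each library moved this count by more than 1.5 times. With the miRNA rows setting the scaling 0 arms were called. miRNA rows called lower numbered 36, and 16 on library totals, 8 with the miRNA rows setting the scaling and 3 with the replicate block. All features called numbered 53, and 23, 12 and 6 in the same order. Fitted alone, 11 miRNA rows were higher. The cause of these moves was not tested.

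Same-numbered libraries did not deviate together (correlations of -0.18, 0.075 and -0.16), and those with different numbers had -0.095 to 0.21. No pairing by number was seen, but 3 libraries per genotype are too few to exclude one. With the replicate block miR-191-5p was called at a log2 change of -0.82. Relative to the reference RNAs in turn, 13 of the 18 others moved the log2 ratio of miR-191-5p from that with miR-103-3p by more than the spread, none reversing it.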

Other observations

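Both arms were tested in 121 hairpins with rows of their own. The 5p arm of miR-191 outnumbered its 3p arm by 9.20 on the log2 scale of WT CPM, and 5 hairpins had a stronger bias to either arm. For miR-425 the value was 3.24, and 51 hairpins had a stronger bias. The log2 changes of the arms differed, 5p minus 3p, by -0.31 in miR-191 and by 0.33 in miR-425, against a median absolute difference of 0.27 over the 121 hairpins. Thus the 5p arm had the lower log2 change in miR-191 and the 3p arm in miR-425, and both gaps were close to the usual one.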
